A study of Mus musculus with 11 samples.

Results

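Galectin-3 of the host was the variable in this comparison: CD8 T cells with an intact galectin-3 gene were transferred into tumor-bearing mice that either had the gene (wild type, WT) or lacked it (knockout, KO), and were recovered from the tumors for transcript profiling on microarrays. The comparison takes the arrays of WT T cells at hand, 3 of KO hosts and 4 of WT hosts, which are 7 of the 11 arrays of the study. Groups were read from the genotypes in the sample labels. The other 4 arrays hold KO T cells of KO hosts, and their values are given beside some results as a description. Donors in all groups were T cell receptor transgenic mice that carry the congenic marker Thy1.2, and the labels speak of high avidity CD8 T cells. All hosts carried NT2.5 cells, a mouse mammary tumor line, placed in the mammary fat pads by 2 injections. Each host was given 100 mg/kg of the alkylating drug cyclophosphamide on day 8, a whole-cell vaccine that secretes the cytokine GM-CSF on day 9, and the T cells on day 10. Tumors were taken 5 days after the transfer, and the donor cells were sorted by Thy1.2. The galectin-3 genotype of the tumor and vaccine cells, the age of the mice and the number of mice behind each array are not given in the sources at hand. The design text counts 4 biological replicates in each group. Of WT T cells in KO hosts, 1 of these 4 was not analysed here.

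Galectin-3, the product of Lgals3, is a secreted lectin that binds galactose-containing glycans and can crosslink glycoproteins on the cell surface. Macrophages, epithelial tumors and activated T cells make it. On T cells it binds glycoproteins with branched N-glycans, among them parts of the T cell receptor complex and the checkpoint receptor LAG-3, and it is known as a restraint on T cell activation in tumors. Interferon gamma, a main product of activated CD8 T cells, induces genes such as Irf1 and the guanylate-binding proteins, and type I interferons act on a partly shared set of genes.

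Lgals3 signal was present in the sorted cells of WT donors from both kinds of host. Its log2 signals were 8.49, 8.15, 8.17 and 8.41 in the 4 arrays from WT hosts and 8.35, 8.02 and 8.45 in the 3 from KO hosts, and these ranges overlapped. The log2 difference, KO hosts minus WT hosts as everywhere below, was -0.03 with a 95% confidence interval from -0.34 to 0.27. The mean of KO T cells in KO hosts was 7.43 ± 0.14 (SD, n = 4). Whether the probe covers sequence that the knockout removes is not given in the sources at hand, and how much of the signal comes from T cells, host cells or background cannot be told apart, so this gene does not check the host labels. Among markers of the sorted cells, Cd8a averaged 11.004 ± 0.06 (SD, n = 4) in WT hosts and 11.09 ± 0.19 (SD, n = 3) in KO hosts. The sort marker Thy1 averaged 9.98 ± 0.26 (SD, n = 4) and 9.82 ± 0.15 (SD, n = 3). Its difference was -0.16, and it was -0.37 without 2 arrays from WT hosts of narrow value range, described below (limma, unadjusted p = 0.044), and -0.32 after the arrays were rescaled (limma, unadjusted p = 0.03). Both markers lay above the 98th percentile of the genes' mean signals, at 99.2 and 98.2.

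No single gene passed the test. Of 15194 genes tested with limma, 0 (0%) reached an adjusted p under 0.05, and the lowest adjusted p was 0.288. At an unadjusted p under 0.05, 1136 genes (7.48%) were called, 550 of them higher in KO hosts (3.62%) and 586 lower (3.86%). After each array was centred on its median, 71.2% of such genes were higher, against 48.4% with the deposited values, so the balance of directions over all genes depends on the scaling. Counting without a spread model, 542 genes (3.57%) were higher in every KO-host array than in every WT-host array and 808 (5.32%) were lower in every one. The median log2 difference over all genes tested was -0.03, 45.5% of genes were higher, and the middle 90% of differences ran from -0.34 to 0.37. The median SE was 0.157, and the small number of arrays limits the precision of every value. Since the labels do not tell whether an array holds 1 mouse or several, p-values reflect only the spread among the samples at hand. Values below are therefore described with their errors, and lists of genes by their counts and medians against these background figures.

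WT-host arrays 1 and 4 had a narrower value range than the remaining arrays. Regressed on the mean array, they had slopes of 0.956 and 0.934, against 1.003 and 1.007 in WT-host arrays 2 and 3 and 1.001, 1.038 and 1.010 in the KO-host arrays. In an array with a low slope, bright genes read lower and dim genes read higher than elsewhere. The median difference was -0.11 among the dimmest 25% of the genes tested and 0.08 among the brightest 25%. Without the 2 narrow arrays these medians were -0.03 and 0.02, and with every array rescaled to a slope of 1 they were -0.05 and -0.01. Each result was therefore also computed in both ways. A stricter class of genes had an unadjusted p under 0.05 with the deposited values, without the narrow arrays and after rescaling, and no overlap between the groups. It held 152 genes higher in KO hosts (1%) and 100 lower (0.658%). Arrays correlated between 0.946 and 0.971 over genes, with a mean of 0.961 within WT hosts, 0.966 within KO hosts and 0.961 between them.

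**Figure D1:**
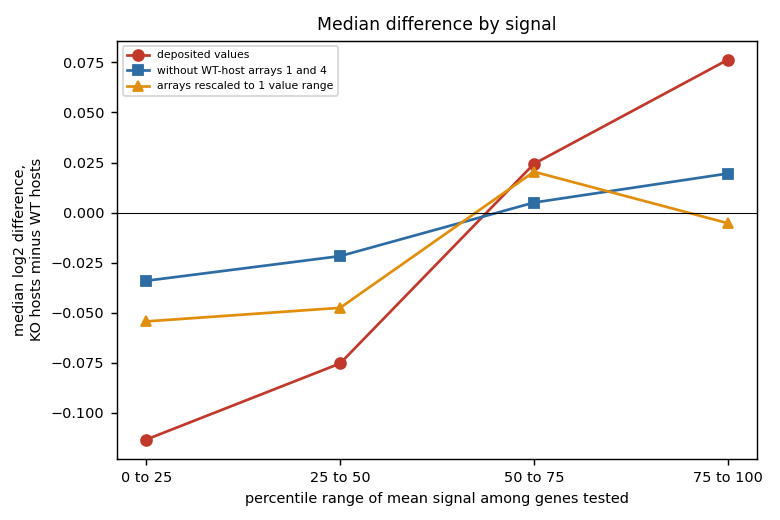
Median log2 difference of WT T cells, KO hosts minus WT hosts (vertical axis) in 4 classes of mean signal (horizontal axis), for the deposited values (circles), without WT-host arrays 1 and 4 (squares) and after rescaling (triangles). The deposited values run from -0.11 in the dimmest class to 0.08 in the brightest, and the other settings stay between -0.05 and 0.02.

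Genes of the interferon gamma response had the highest median of the 31 lists examined with the deposited values. The list names 20 genes, of which 11 could be tested and 9 are unnamed here, among them Igtp and Iigp1. Of the 11 genes, 10 were higher in KO hosts, 6 at an unadjusted p under 0.05 and 5 without overlap, and 0 passed over all genes. Their median log2 difference was 0.56, against -0.03 for all genes tested. Without the narrow arrays it was 0.30, with all 11 genes higher and 4 at an unadjusted p under 0.05, and after rescaling it was 0.53. Under both settings the macrophage list had a higher median, at 0.45 and 0.55. The score of the list, which is the mean of its genes' signals after each gene is centred on its mean, lay between -0.40 and -0.20 in WT hosts, at 0.14 in each KO-host array, and between 0.04 and 0.44 in KO T cells of KO hosts.

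Promoters of the interferon gamma genes in the stricter class are shown, with the letters by which interferon-activated factors are known to bind. Cxcl9, with the largest difference of the list, lies outside that class and is not shown. A search on both strands, overlapping matches included, used TTCNNNGAA for the gamma-activated site (GAS) and GAAANNGAAA for the interferon-stimulated response element (ISRE). Sequences are from RefSeq (GRCm38.p6) and run 5′ to 3′ on the gene's strand, from 250 bases before the start to 50 after it, with matches in capitals. The promoters are those of Irf1 at chr11:53769764-53770063 on the plus strand (1 GAS), Irgm1 at chr11:48871371-48871670 on the minus strand (2 overlapping ISRE), Gbp3 at chr3:142559794-142560093 on the plus strand (2 overlapping ISRE) and Gbp7 at chr3:142530086-142530385 on the plus strand (2 GAS and 1 ISRE).
Irf1: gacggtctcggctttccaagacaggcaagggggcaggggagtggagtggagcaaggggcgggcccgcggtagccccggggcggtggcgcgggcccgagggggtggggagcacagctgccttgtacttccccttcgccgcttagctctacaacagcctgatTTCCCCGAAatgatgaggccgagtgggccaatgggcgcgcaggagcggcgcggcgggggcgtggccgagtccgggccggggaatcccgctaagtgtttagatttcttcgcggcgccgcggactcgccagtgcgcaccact
Irgm1: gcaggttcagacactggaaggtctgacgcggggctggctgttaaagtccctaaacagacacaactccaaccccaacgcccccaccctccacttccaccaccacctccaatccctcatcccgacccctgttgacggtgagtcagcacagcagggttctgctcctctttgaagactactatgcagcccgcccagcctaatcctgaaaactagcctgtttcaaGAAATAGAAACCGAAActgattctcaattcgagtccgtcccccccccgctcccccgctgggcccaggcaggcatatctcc
Gbp3: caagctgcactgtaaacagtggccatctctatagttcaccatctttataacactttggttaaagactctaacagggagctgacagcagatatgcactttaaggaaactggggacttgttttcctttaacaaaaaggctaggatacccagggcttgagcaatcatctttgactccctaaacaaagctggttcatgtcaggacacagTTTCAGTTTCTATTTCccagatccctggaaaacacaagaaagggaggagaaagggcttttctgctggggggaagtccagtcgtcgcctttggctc
Gbp7: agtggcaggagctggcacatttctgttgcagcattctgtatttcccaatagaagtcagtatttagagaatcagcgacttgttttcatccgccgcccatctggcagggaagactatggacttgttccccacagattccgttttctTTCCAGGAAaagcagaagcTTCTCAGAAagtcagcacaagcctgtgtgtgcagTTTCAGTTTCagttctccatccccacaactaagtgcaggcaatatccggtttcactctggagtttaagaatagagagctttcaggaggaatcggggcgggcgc
A second start listed for Irf1 and for Gbp3 held neither set of letters. Of the 10 listed genes with a promoter in the table, 4 held a GAS, 8 an ISRE and 9 at least 1 of them, while Cxcl9 held neither in this window. Over the 11804 tested genes with a promoter, 7.95% held a GAS, 3.30% an ISRE and 10.8% either. A match only describes these letters.

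Irf1 encodes a transcription factor that interferon gamma induces and that in turn activates antigen presentation genes. Its log2 signals were 7.42, 7.15, 6.86 and 7.30 in WT hosts and 8.13, 7.74 and 7.59 in KO hosts. All 3 KO-host arrays lay above all 4 from WT hosts. The difference was 0.64 (95% CI 0.30 to 0.98), which is 1.56-fold (limma, unadjusted p = 0.00143, adjusted p = 0.592). It was 0.82 without the narrow arrays.

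The GTPases that interferon induces for defence inside the cell stood at similar sizes. Irgm1, an immunity-related GTPase, had signals of 6.26, 6.37, 5.97 and 6.06 in WT hosts and 6.78, 6.95 and 6.54 in KO hosts. The groups did not overlap, and the difference was 0.59 (95% CI 0.26 to 0.92), the same size without the narrow arrays. Gbp3, a guanylate-binding protein, had 6.87, 6.56, 6.53 and 6.52 in WT hosts and 7.20, 7.33 and 6.95 in KO hosts. WT-host array 1 was the highest of its group and still lay below every KO-host array, and the difference was 0.54 (95% CI 0.21 to 0.87). Gbp7 had 6.80, 6.67, 6.75 and 6.76 against 7.18, 7.82 and 6.97, again without overlap, at 0.58 (95% CI 0.12 to 1.03). These 3 genes and Irf1 belong to the stricter class.

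Gbp2 differed by 0.66 (95% CI 0.17 to 1.15), but its WT-host arrays ran from 6.93 to 7.99 and overlapped the KO-host range of 7.91 to 8.00. Without the narrow arrays its difference was 0.30. Gbp5 and Tgtp1, a further immunity-related GTPase, were at 0.24 and 0.21, both with intervals that include 0. Mean signals in KO T cells of KO hosts, which share the host genotype, were 7.69 for Irf1, 6.73 for Irgm1, 7.21 for Gbp3, 7.13 for Gbp7 and 8.06 for Gbp2. Any comparison of that group with WT hosts would share the same 4 control arrays, so these means stand only beside the others.

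The interferon-induced chemokines Cxcl9 and Cxcl10, both ligands of the T cell receptor for homing CXCR3, were measured as well. Cxcl9 had 7.48, 7.56, 7.65 and 7.36 in WT hosts and 7.82, 7.99 and 8.93 in KO hosts. No array overlapped, and KO-host array 3 stood highest. The difference was 0.73 (95% CI 0.23 to 1.23), and without the narrow arrays it was 0.64 at an unadjusted p of 0.057 (limma). Cxcl10 had 6.61, 5.95, 6.09 and 6.31 against 5.23, 6.61 and 6.71, with KO-host array 1 lowest of all 7 arrays. Its difference was -0.06 (95% CI -0.78 to 0.66), and it turned to 0.42 without that array.

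**Figure D2:**
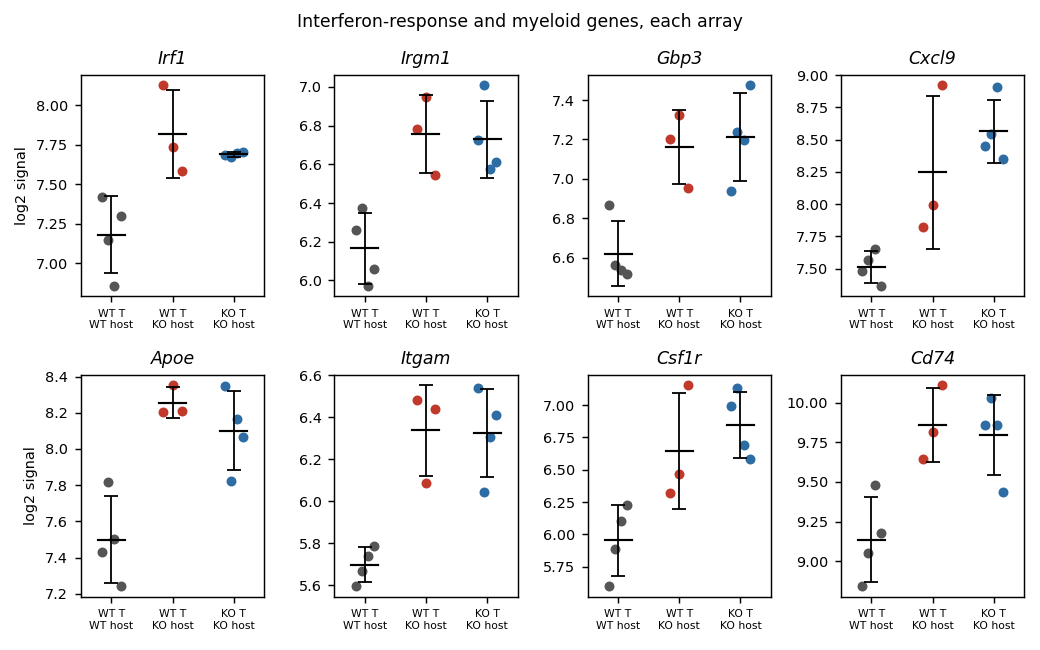
Log2 signal (vertical axis) of 4 interferon-response genes and 4 myeloid or class II genes in each array (points), with group means and SD (bars), for WT T cells in WT hosts (4 arrays), the same cells in KO hosts (3 arrays) and KO T cells of KO hosts (4 arrays). In each panel the 3 KO-host arrays of WT T cells lie above the 4 from WT hosts.

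Type I interferon-stimulated genes had smaller differences. Of 26 listed, 21 were tested, 18 of them higher in KO hosts, with a median of 0.24. At an unadjusted p under 0.05, 6 were higher and 0 lower, and 4 did not overlap. The median was 0.19 without the narrow arrays. Scores ran from -0.25 to -0.15 in WT hosts and from 0.01 to 0.16 in KO hosts. Of 15 listed genes with a promoter, 9 held an ISRE by the letters given above and 2 a GAS.

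Ifit1, which binds viral RNA that lacks host cap methylation, had 4.55, 4.26, 4.80 and 5.42 in WT hosts and 6.11, 5.65 and 5.88 in KO hosts. The groups did not overlap, and at 1.12 (95% CI 0.19 to 2.05) its difference was the highest of the list. Parp14, an ADP-ribosyltransferase, had 6.94, 7.09, 6.36 and 6.27 against 7.19, 7.34 and 7.25, at 0.59 (95% CI 0.19 to 0.997). WT-host array 2 lay closest to the KO-host arrays. Oasl2, of the oligoadenylate synthetase family, was at 0.39 (95% CI 0.12 to 0.65) without overlap, although its signal near 4.5 lies close to the filter value of 4.33. These genes are in the stricter class. Ifit2, a relative of Ifit1, was at 0.49 with overlap, and Irf9, a transcription factor of the type I interferon response, was at 0.45. Usp18, a protease that removes ISG15 from proteins, was at 0.34. Its WT-host signals, from 4.45 to 4.57, also lie close to the filter value. Isg15 itself was at 0.54 (95% CI -0.14 to 1.22), with WT-host arrays from 5.81 to 7.003 around KO-host arrays from 6.88 to 6.92, and at 0.03 without the narrow arrays. Dhx58, a regulator of RNA sensing, was the lowest of the list at -0.34 (95% CI -0.74 to 0.05).

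Markers of macrophages and monocytes, which a sort of T cells is meant to leave out, were higher in the same arrays, with a median near that of the interferon gamma list. Of 20 listed, 16 were tested and 14 were higher in KO hosts, 10 at an unadjusted p under 0.05 and 8 without overlap, with 0 lower at that p. The median log2 difference was 0.53, 0.45 without the narrow arrays and 0.55 after rescaling. Without KO-host array 3 it was 0.29, with 13 genes higher and 5 at an unadjusted p under 0.05. The mean signal of the 16 genes lay between 6.18 and 6.36 in WT hosts, between 6.56 and 7.07 in KO hosts and between 6.53 and 6.87 in KO T cells of KO hosts. Of the remaining markers, Mrc1 and Mertk were below the filter in mean signal, and Lyz2 is unnamed here. In such bulk samples fewer cells of a type and less RNA per cell cannot be told apart. The part of other cells in the interferon, class II and chemokine differences was not tested.

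Apoe, a lipid carrier abundant in tissue macrophages, had 7.43, 7.82, 7.51 and 7.24 in WT hosts and 8.21, 8.35 and 8.21 in KO hosts. The groups were apart, and the difference was 0.76 (95% CI 0.42 to 1.09; limma, unadjusted p = 0.000361). Itgam, the CD11b chain of a myeloid integrin that activated CD8 T cells can also carry, had 5.59, 5.67, 5.74 and 5.79 against 6.48, 6.09 and 6.44, at 0.64 (95% CI 0.33 to 0.95). Here too no array overlapped. Csf1r, the receptor for macrophage colony-stimulating factor, had 5.60, 5.89, 6.10 and 6.23 against 6.32, 6.47 and 7.16, at 0.69 (95% CI 0.22 to 1.17). WT-host array 4 and KO-host array 1 were neighbours, and KO-host array 3 stood highest.

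The signaling adaptor Tyrobp was at 1.02 (95% CI 0.40 to 1.64), the scavenger receptor Msr1 at 0.91 (95% CI 0.34 to 1.47) and the F4/80 gene Adgre1 at 0.36 (95% CI 0.08 to 0.64), each without overlap. Msr1 and Adgre1 are dim, with KO-host means of 4.86 and 4.57. The complement genes C1qb and C1qc were at 0.68 and 0.39, and the Fc receptor Fcgr1 was at 0.72 with KO-host arrays from 5.68 to 6.99. The brightest markers had smaller differences. The lysosomal protein Cd68 was at 0.19 (95% CI -0.36 to 0.74), with KO-host arrays at 8.19, 8.75 and 9.43, and it turned to -0.13 without the third. Ctss, a lysosomal protease, was at 0.23 (95% CI -0.01 to 0.48).

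Class II genes, which antigen-presenting cells express, were higher within a mixed list. Of 8 dendritic cell and class II genes tested, 5 were higher, 2 of them at an unadjusted p under 0.05 and 1 was lower at such a p, and the median was 0.10. Cd74, the invariant chain of class II molecules, had 8.84, 9.05, 9.48 and 9.18 in WT hosts and 9.65, 9.82 and 10.11 in KO hosts. Its arrays were apart and its difference was 0.72 (95% CI 0.33 to 1.12; limma, unadjusted p = 0.0018), or 0.59 both without the narrow arrays and after rescaling. The class II chain H2-Aa was at 0.52 without overlap and H2-Ab1 at 0.28 with overlap. Cd209a, a lectin of dendritic cells, was lower in every KO-host array, at -0.33 (95% CI -0.61 to -0.05).

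The remaining lists of other cell types had medians from -0.18 to 0.17. Of 8 neutrophil markers 3 were higher (median -0.09), 1 of them and 1 of the lower ones at an unadjusted p under 0.05. Among them, Csf3r, the receptor for granulocyte colony-stimulating factor, was at 0.46 without overlap, and the calgranulin S100a8, also made by monocytes, had 4.89, 6.41, 5.67 and 4.93 against 5.17, 7.52 and 7.31 with overlap. The granule protein genes Ltf and Elane were lower without overlap, at -0.24 (95% CI -0.46 to -0.02) and -0.31 (95% CI -0.63 to 0.0022), and at -0.17 and -0.15 without the narrow arrays. Tumor epithelium had 2 of 9 markers higher (median -0.11), with the adhesion molecule Epcam at -0.32 without overlap. Stroma and endothelium had 0 of 7 higher (median -0.14), and B cells 1 of 5 (median -0.16). Without the narrow arrays 4 tumor epithelium, 2 stroma and 1 B cell markers were higher, with medians of -0.03, -0.05 and -0.12. With the array slope as a covariate in the fit these medians were 0.02, 0.01 and -0.05. The tested B cell, stroma and neutrophil markers had median signal percentiles of 41.2, 38.3 and 38.2 among named genes, below the middle. For 4 tested NK cell markers the median was 0.17 with 3 higher, 0 of them at an unadjusted p under 0.05.

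**Figure D3:**
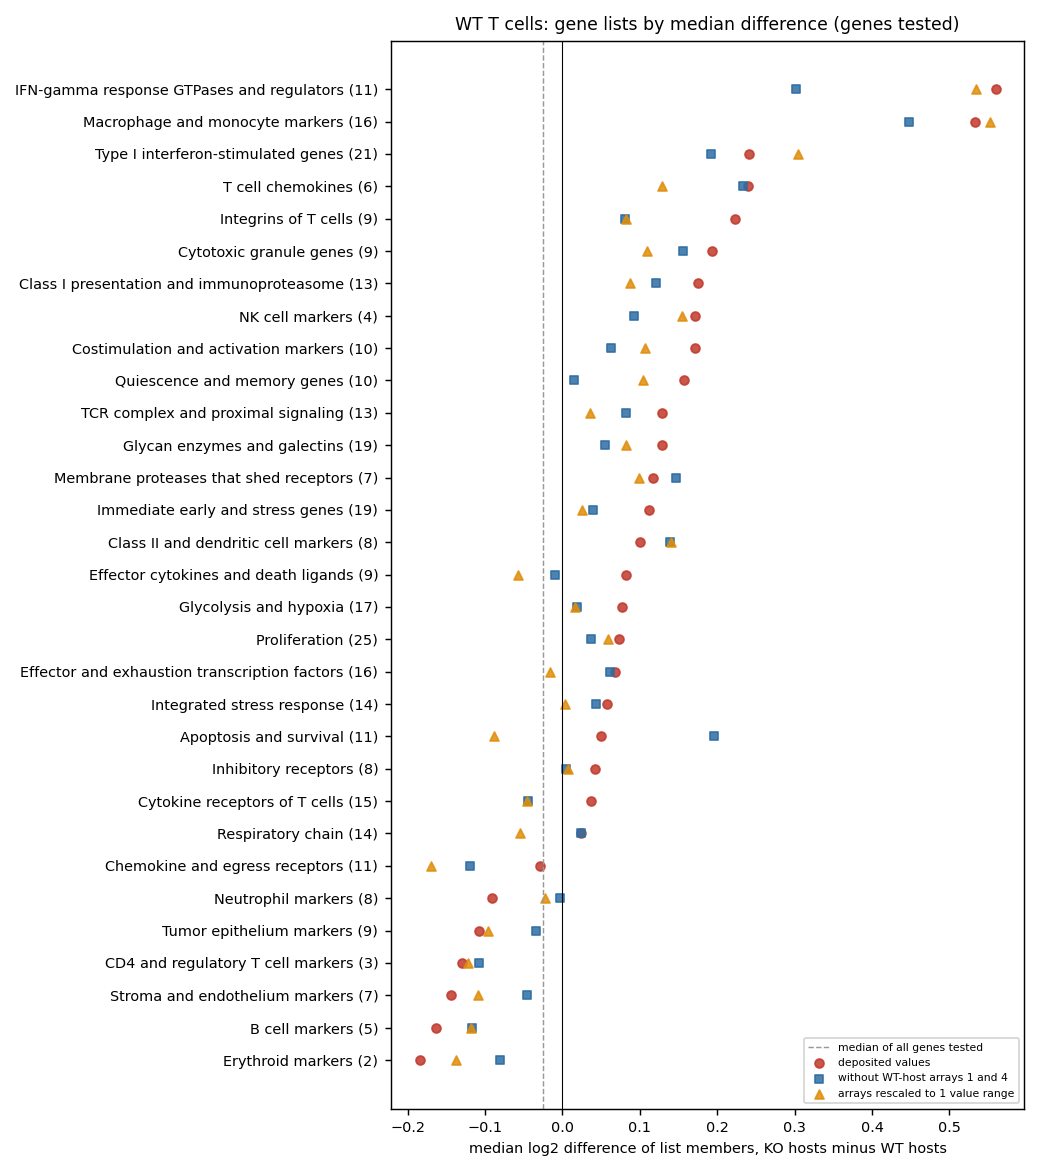
Median log2 difference, KO hosts minus WT hosts (horizontal axis), of the genes tested in each of 31 lists (number in brackets), with the deposited values (circles), without WT-host arrays 1 and 4 (squares) and after rescaling (triangles). The dashed line marks the median of all genes tested, -0.03. The interferon gamma and macrophage lists lie farthest to the right, at 0.56 and 0.53.

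Several lists with medians near 0 had the opposite sign under another scaling. After rescaling the median was -0.06 for effector cytokines, -0.02 for effector transcription factors, -0.05 for cytokine receptors, -0.06 for the respiratory chain and -0.09 for apoptosis genes, against positive medians with the deposited values. Quantile normalization also put inhibitory receptors at -0.02, the integrated stress response at -0.01 and neutrophil markers at 0.00071, against 0.04, 0.06 and -0.09.

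**Figure D4:**
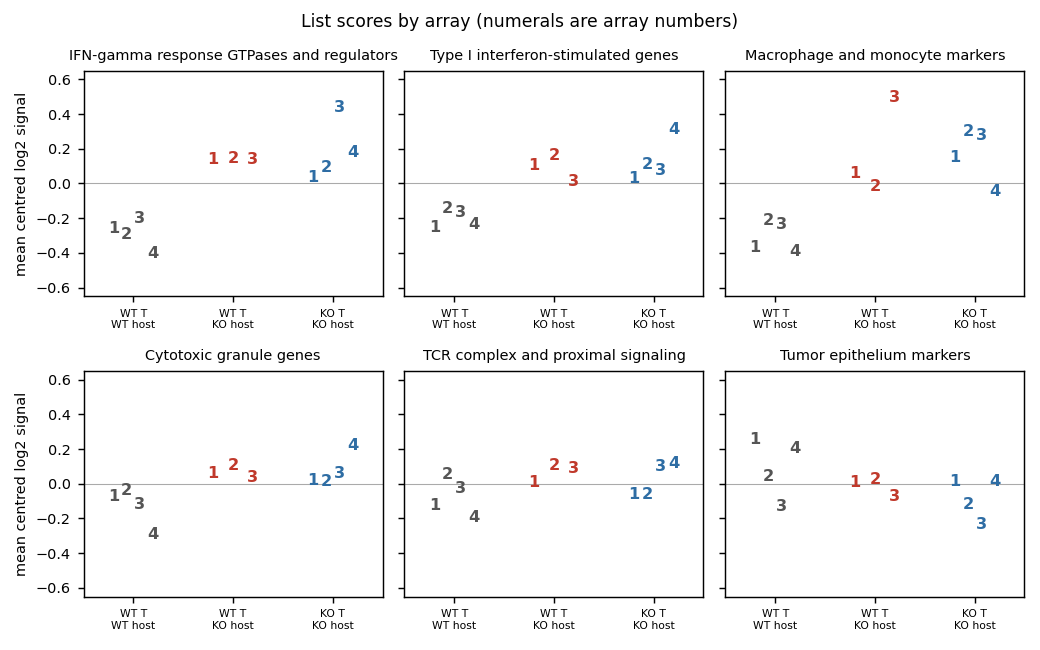
Scores of 6 lists (mean of centred log2 signals, vertical axis) in each array, drawn as the array's number within its group. The macrophage scores and both interferon scores of all 3 KO-host arrays of WT T cells lie above those of all 4 WT-host arrays. Array 3 has the highest macrophage score, 0.50.

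Genes for class I presentation, by which cells show peptides to CD8 T cells, had a median of 0.18, or 0.12 without the narrow arrays. Of 13 tested, 10 were higher, yet 0 had an unadjusted p under 0.05 in either direction. The largest difference was that of Tapbpl, a peptide editor, at 0.35 (95% CI -0.03 to 0.73). The peptide transporter Tap1 and the chaperone Calr were at 0.21 and 0.25, with intervals that include 0.

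Effector genes of the T cells were led by the chemokines Ccl3 and Ccl4, which activated CD8 T cells secrete in quantity, as do macrophages. Ccl4 had 9.97, 9.94, 9.79 and 9.63 in WT hosts and 10.28, 10.31 and 10.61 in KO hosts. The groups did not overlap, the difference was 0.56 (95% CI 0.28 to 0.84; limma, unadjusted p = 0.000884), and it was 0.53 without the narrow arrays and 0.40 after rescaling. Ccl3 had 10.91, 10.73, 10.44 and 10.73 against 11.16, 11.22 and 11.28, at 0.52 (95% CI 0.19 to 0.85). It too did not overlap, and after rescaling it was at 0.31 with an unadjusted p of 0.11 (limma). Of 6 chemokines tested, 5 were higher (median 0.24), and Ccl1 was at -0.27. Without the narrow arrays 4 were higher with a median of 0.23, and after rescaling the median was 0.13.

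Among 9 cytotoxic granule genes 8 were higher, 3 at an unadjusted p under 0.05, with a median of 0.19. Without the narrow arrays 0 had an unadjusted p under 0.05 and the median was 0.16, and after rescaling it was 0.11. Gzmb, the gene of the protease granzyme B, had 11.50, 11.40, 11.34 and 11.14 in WT hosts and 11.80, 11.74 and 11.58 in KO hosts. These values did not overlap, but the difference of 0.36 (95% CI 0.06 to 0.67) became 0.13 after rescaling. Gzma, of the related granzyme A, was at 0.44 with overlap, and the lysosomal membrane protein Lamp1 at 0.35, which was 0.16 without the narrow arrays. Prf1, which encodes the pore-forming perforin, was at 0.19 (95% CI -0.15 to 0.53).

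Ifng, the gene of interferon gamma itself, did not separate the hosts. It had 9.58, 9.69, 9.57 and 9.73 in WT hosts and 9.52, 10.10 and 10.06 in KO hosts, so KO-host arrays 2 and 3 were above the WT-host range and array 1 below it. The difference was 0.25 (95% CI -0.10 to 0.60), and 0.09 after rescaling. Tnf was at -0.13 (95% CI -0.44 to 0.18) and the regulatory cytokine Il10 at 0.57 (95% CI -0.19 to 1.34). Without the narrow arrays they were at -0.30 and 0.25, and rescaling put Tnf at -0.29 (limma, unadjusted p = 0.034). For the 9 effector cytokines and death ligands tested, 5 were higher with a median of 0.08, and 0 had an unadjusted p under 0.05.

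Checkpoint receptors were close to 0. Lag3, whose product binds galectin-3, had 9.34, 9.52, 9.60 and 9.50 in WT hosts and 9.40, 9.69 and 9.35 in KO hosts. The groups overlapped, and the interval of the difference, from -0.29 to 0.27, leaves room for changes of that size. Pdcd1, the gene of PD-1, was at -0.08 (95% CI -0.46 to 0.31). Btla, an inhibitory receptor that binds HVEM, was the highest of the 8 tested at 0.41 (95% CI -0.10 to 0.91), near the filter in signal. The list's median was 0.04, and 0.00 without the narrow arrays.

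T cell receptor and signaling genes, among the brightest on the arrays, had a median of 0.13 over 13 genes and 0.08 without the narrow arrays. Cd3g, a chain of the receptor complex, was at 0.23 and at 0.04 after rescaling. A dimmer row of Cd3g, with a mean of 4.23 and so below the filter, was at 0.73. Dimmer rows of the chains Cd3d and Cd247, with means of 10.48 and 6.59, were at 0.77 and 0.17. The list does not use these rows, and its highest difference was 0.37. Lcp2, the adaptor SLP-76, had 8.51, 8.62, 8.66 and 8.54 in WT hosts and 8.85, 8.78 and 8.80 in KO hosts. It did not overlap, but its difference of 0.23 was 0.12 after rescaling. Cd8a went from 0.09 to -0.12 under that setting.

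Receptors by which T cells sense cytokines and move had single members apart within lists near 0. Il15ra, which presents and binds interleukin 15, a survival factor of memory CD8 T cells, had 5.12, 5.51, 5.39 and 5.52 in WT hosts and 6.12, 6.00 and 5.74 in KO hosts. Its groups did not overlap, and the difference of 0.57 (95% CI 0.28 to 0.86; limma, unadjusted p = 0.00113) stayed at 0.51 without the narrow arrays and 0.59 after rescaling. Macrophages express this receptor as well. The other 14 cytokine receptors included Ifngr2, a chain of the interferon gamma receptor, at 0.59 with overlap and Tgfbr1, a chain of the receptor for transforming growth factor beta, at 0.34, and the median of the 15 was 0.04.

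Cx3cr1, the fractalkine receptor of effector CD8 T cells and monocytes, had 7.68, 7.63, 7.63 and 7.55 in WT hosts and 8.03, 8.30 and 7.78 in KO hosts. It was the only one of 11 chemokine and egress receptors at an unadjusted p under 0.05, at 0.42 (95% CI 0.14 to 0.69), and the list's median was -0.03. Of 9 integrin genes 8 were higher, 1 at an unadjusted p under 0.05, with a median of 0.22. That median was 0.08 both without the narrow arrays and after rescaling, and 0 genes had such a p without the narrow arrays. Itgb3, the beta chain of the vitronectin receptor, was at 0.40, and Itgb2, the partner chain of Itgam and of the T cell integrin LFA-1, was at 0.22 and at 0.07 after rescaling.

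Enzymes that build the glycans galectin-3 reads were examined next. Of 19 glycan enzymes and galectins tested 13 were higher, 3 at an unadjusted p under 0.05, with a median of 0.13 and of 0.06 without the narrow arrays. St3gal1, the sialyltransferase that caps core 1 O-glycans and so covers their galactose, had 7.43, 7.75, 7.73 and 8.05 in WT hosts and 8.40, 8.45 and 8.42 in KO hosts. The KO-host arrays lay within 0.05 of each other and above every WT-host array. The difference was 0.69 (95% CI 0.37 to 0.999; limma, unadjusted p = 0.000464), 0.69 without the narrow arrays and 0.60 after rescaling, and the KO T cells of KO hosts averaged 8.20 ± 0.15 (SD, n = 4). C1galt1, which adds the galactose that makes core 1, had 7.10, 7.41, 7.65 and 7.14 against 7.92, 7.94 and 7.66. Its groups touched at 7.65 and 7.66, and its difference of 0.52 (95% CI 0.16 to 0.87) was 0.31 without the narrow arrays, at an unadjusted p of 0.11 (limma). Lgals3bp, a secreted glycoprotein that binds galectin-3 and is known as an interferon-induced gene, was at 0.25 (95% CI 0.01 to 0.48) without overlap. Mgat5, the branching enzyme whose N-glycans galectin-3 prefers, was at 0.20 (95% CI -0.88 to 1.28), and a second row of it at -0.08.

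Proteases that cut receptors from the membrane were led by Adam17, which sheds tumor necrosis factor, L-selectin and LAG-3. It had 6.03, 6.15, 5.70 and 5.89 in WT hosts and 6.40, 6.99 and 6.80 in KO hosts. All KO-host arrays lay above all WT-host arrays, at 0.79 (95% CI 0.44 to 1.13; limma, unadjusted p = 0.000328, adjusted p = 0.592), and the size held at 0.80 and 0.78 under the other settings. KO T cells of KO hosts averaged 6.30 ± 0.14 (SD, n = 4). Adam10, the other protease known to cut LAG-3, was at 0.12 with overlap, and Adam8 was at 0.39. Of the 7 genes tested, 6 were higher with a median of 0.12.

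**Figure D5:**
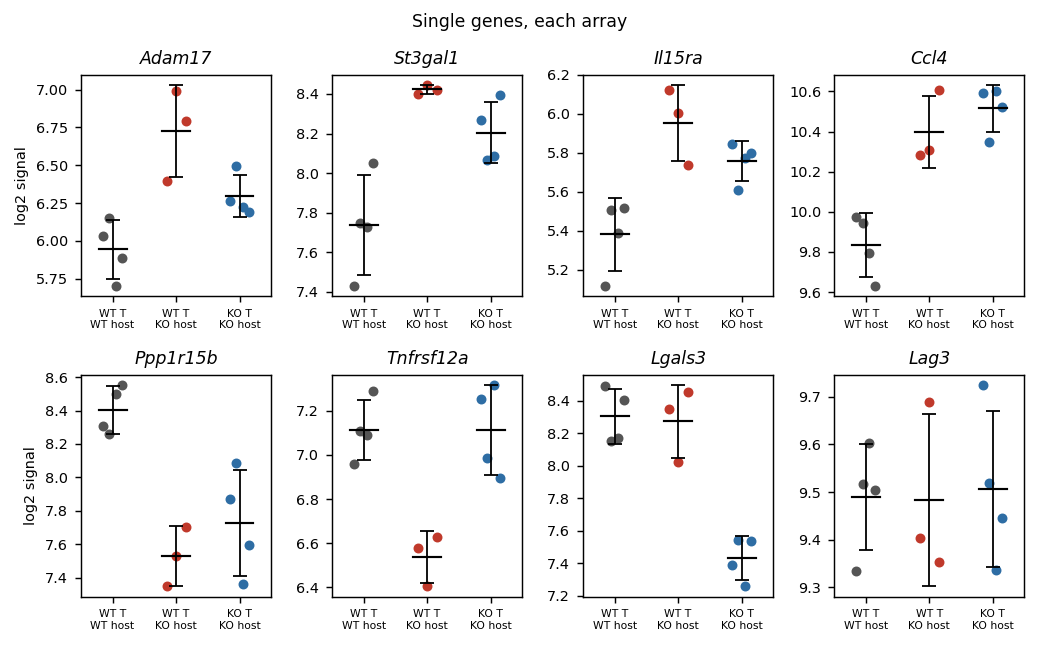
Log2 signal (vertical axis) of 8 single genes in each array (points), with group means and SD (bars), in the 3 groups of arrays. Adam17, St3gal1, Il15ra and Ccl4 are higher and Ppp1r15b and Tnfrsf12a lower in every KO-host array of WT T cells than in every WT-host array, while Lgals3 and Lag3 overlap between these groups.

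Transcription factors of effector and exhausted T cells had a median of 0.07, with 11 of 16 higher. Prdm1, the gene of BLIMP-1, which drives terminal effector differentiation, had 5.13, 5.28, 5.38 and 5.55 against 5.65, 5.57 and 5.95 and did not overlap. Its difference was 0.39 (95% CI 0.07 to 0.71). Id3, a regulator linked to memory precursors, comes from a separate list of quiescence and memory genes. It was at 0.54 (95% CI 0.05 to 1.02), also without overlap. Of the 10 genes tested in that list 6 were higher, 1 at an unadjusted p under 0.05, and 4 were lower, 1 without overlap. The median of that list was 0.16, or 0.01 without the narrow arrays, 0.10 after rescaling and -0.07 with the slope as a covariate. Prdm1 and Id3 are in the stricter class. Irf4, induced by T cell receptor signals, was at 0.45 with overlap and at 0.10 without the narrow arrays, and Klf2, which maintains quiescence, was at 0.34 with overlap.

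Of 25 proliferation genes 18 were higher, 3 at an unadjusted p under 0.05, with a median of 0.07. Over all genes tested, 45.5% were higher, 3.62% were higher at that p, and the median was -0.03. Among genes tested, those between the 50th and 75th signal percentiles had a median of 0.02, and those above the 75th had 0.08. The proliferation genes were bright, with a median signal percentile of 79.4 among named genes. Without the narrow arrays 16 proliferation genes were higher, 2 at that p, and their median was 0.04. Cenpf, a kinetochore protein, had 5.76, 5.66, 5.81 and 5.79 in WT hosts and 6.16, 6.25 and 6.24 in KO hosts. The groups were tight and apart, at 0.46 (95% CI 0.16 to 0.77). The mitotic kinesin Kif20a was at 0.42 without overlap and Birc5, the gene of survivin, at 0.33 with overlap. Glycolysis and respiratory chain genes had medians of 0.08 and 0.02. Within the first list Bpgm, which makes 2,3-bisphosphoglycerate, was at 0.59 (95% CI 0.31 to 0.88) without overlap.

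Stress genes held some of the clearest single differences in both directions. Ier3, an immediate early gene that modulates survival signals, had 6.50, 6.52, 6.36 and 6.51 in WT hosts and 7.45, 7.18 and 7.48 in KO hosts. The groups lay well apart, at 0.89 (95% CI 0.51 to 1.28; limma, unadjusted p = 0.000297). Jun, a subunit of AP-1, was at 0.47 without overlap, and the stress factor Atf3 at 0.50 with overlap. Of 19 immediate early and stress genes 14 were higher, with a median of 0.11. Without the narrow arrays 11 were higher with a median of 0.04, and after rescaling the median was 0.03.

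In the integrated stress response, which slows translation through phosphorylation of eIF2 alpha, the pair of regulatory subunits that direct the phosphatase back to eIF2 alpha stood on opposite sides. Ppp1r15b, the constitutive subunit, had 8.31, 8.26, 8.50 and 8.55 in WT hosts and 7.35, 7.53 and 7.70 in KO hosts. Every KO-host array lay below every WT-host array, at -0.88 (95% CI -1.24 to -0.51; limma, unadjusted p = 0.00022), and KO T cells of KO hosts averaged 7.73 ± 0.32 (SD, n = 4). Of its 3 other rows those with means of 7.57 and 4.49 were at -0.50 and -0.53, and the dimmest, with a mean of 3.01, was at 0.07. Ppp1r15a, the stress-induced subunit GADD34, had 8.49, 8.19, 8.55 and 7.85 against 8.80, 8.60 and 8.68. Its groups did not overlap, at 0.42 (95% CI 0.07 to 0.77), and without the narrow arrays it was at 0.32 with an unadjusted p of 0.057 (limma). Eif2ak4, the amino acid sensing kinase GCN2, was at 0.42 and the chaperone Hspa5 at 0.36, both without overlap. Trib3, a target of the pathway, was at -0.32, and Ddit3, the gene of CHOP, was at 0.40 with overlap. Over the 14 genes tested the median was 0.06, with 3 higher and 2 lower at an unadjusted p under 0.05. Among 11 apoptosis genes, Bak1, a pore-former of mitochondria, was at -0.30 without overlap and the initiator caspase Casp8 at 0.27.

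The 15 genes of lowest p in each direction were named by rule, and all 30 belong to the stricter class. Higher in KO hosts, beside Ier3, Adam17, St3gal1, Apoe, Itgam, Ccl4 and Bpgm already described, were 3 further genes of myeloid cells. The secreted lectin Chil3, a product of alternatively activated macrophages in mice, had 5.38, 3.86, 5.26 and 3.53 against 6.47, 5.78 and 6.67, at 1.80 (95% CI 0.89 to 2.71). WT-host arrays varied by almost 2 log2 units and still lay below the others. Ncf1, a subunit of the phagocyte oxidase, had 5.72, 5.84, 5.90 and 5.94 against 6.33, 6.47 and 6.47, at 0.57 (95% CI 0.30 to 0.84), while KO T cells of KO hosts averaged 5.98 ± 0.20 (SD, n = 4). Pld4, a nuclease of endolysosomes, was at 1.14 (95% CI 0.57 to 1.71).

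Some of the remaining genes rested on 1 of several rows. Of the 30 genes, 9 had another row above the filter, and in 3 of these the other row pointed the opposite way. Megf11 was at 1.99 (95% CI 1.14 to 2.85) in its brightest row and at -0.14 in the other. Hook3, a motor adaptor, was at 1.11 (95% CI 0.58 to 1.64) and at -0.04. Dbndd1, with the lowest p of all genes (limma, unadjusted p = 2.8e-05, adjusted p = 0.288), had 6.20, 6.19, 5.76 and 6.48 in WT hosts and 4.55, 4.31 and 5.13 in KO hosts, at -1.50 (95% CI -1.996 to -0.996). Its other rows were at -0.06 and 0.43. Ecpas, a proteasome adaptor, was at 1.92 and at 0.20 in its other row. Snf8, of the ESCRT-II complex that sorts membrane receptors for degradation, was at 0.65 and its other rows at 0.69 and 0.39, so all of its rows were higher. Rps15a-ps2, at 1.11 (95% CI 0.73 to 1.49), carries the name of a ribosomal protein pseudogene, and its signal may include that of the parent gene.

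Among genes lower in KO hosts, Tnfrsf12a, the receptor of the cytokine TWEAK, had 6.96, 7.11, 7.09 and 7.29 in WT hosts and 6.58, 6.40 and 6.63 in KO hosts. The groups did not overlap, at -0.58 (95% CI -0.87 to -0.28), and KO T cells of KO hosts averaged 7.11 ± 0.20 (SD, n = 4). Tbc1d7, a subunit of the TSC complex that restrains mTORC1, had 5.74, 5.79, 5.78 and 5.70 against 4.98, 5.14 and 5.30, at -0.61 (95% CI -0.94 to -0.29). The WT-host arrays were within 0.1 of each other. The transcription factors Mzf1 and Myog, the latter a factor of muscle differentiation, were at -0.50 and -0.56, and the glucose transporter Slc2a10 at -0.49. Gsdmcl1, named as a gasdermin-like gene, was at -1.26 (95% CI -1.82 to -0.70). The calcium-binding protein Pvalb was at -0.50 and Wdr78 at -0.79, with a dim second row of the latter at 0.20. BC039966, Gm4773, 4930461C15Rik, EG633570 and 9630002D21Rik complete the list.

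The value range bore on which genes kept a low p. Of 75 named genes with an unadjusted p under 0.05, 23 lost it without the narrow arrays, a fit that also has fewer samples, and 9 lost it after rescaling. Together these are 25 genes: Gzmb, Gzma, Lamp1, Ccl3, Cxcl9, Gbp2, Usp18, Irf9, C1qb, Fcgr1, H2-Aa, Cd209a, Csf3r, Epcam, Itgb3, Lcp2, C1galt1, Lgals3bp, Birc5, Jun, Ppp1r15a, Hspa5, Trib3, Bak1 and Ltf. None of them changed its direction under either setting. In turn, 8 named genes above that p with the deposited values fell under it. Without the narrow arrays these were Thy1, Btla, Dhx58, Tapbpl, Adam8 and Atf3, and after rescaling Thy1, Tnf and Tgfbr1.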

How the data were processed

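Total RNA was taken from the sorted cells with a Nanoprep kit and amplified with a NuGEN Ovation Pico kit before biotin labelling and hybridisation, per the labels' protocols. The authors deposited 1 table of log2 signals (115830 rows, 11 arrays, values from 1.27 to 14.4), and the submitters' processing notes name RMA, Partek and the build mm9 without versions or settings. The log2 scale was read from the values. Rows were named through the platform annotation: 25539 (22.0%) name 1 gene, 2300 several, and 87991 are unnamed here. For each of 20259 genes the row of highest mean was used, and genes with a mean below the 25th percentile (4.33) were left out, which left 15194. No value was normalized again.

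Groups came from the genotypes in the labels. The test was limma 3.58.1 (R 4.3.3), lmFit and eBayes on all 11 arrays with 3 group means, so that KO T cells add to the estimate of spread, and Benjamini-Hochberg adjustment over all genes. The procedure was tested on simulated data. Alternatives covered the value range, scaling, the filter, the choice of row, the variance model, array weights, the arrays in the fit, a replicate block and each array left out. Promoters were taken from RefSeq tables of GRCm38.p6. Tables were made with Python 3.11.15 and pandas 2.3.3.

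The members, lists and alternatives were chosen with earlier results of these data known. Named genes were the 15 of lowest p in each direction, up to 4 members of lowest p per list, further interferon, chemokine, checkpoint and macrophage genes, and Lgals3, Cd8a, Thy1, Lag3, Pdcd1, Ifng, Gzmb and Prf1. Outside that rule, after their values were seen, came Tnf, H2-Ab1, Mgat5, Atf3, Trib3, Ddit3, Ccl8, Spi1, Cd86 and Slamf6.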

Additional observations from a re-analysis of the deposited data

Results flagged for a closer look

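In the 4 arrays of WT T cells from WT hosts, 143 values were examined, and 6 held an array that stood apart from the other 3 by more than Dixon's 95% critical value allows. WT T cells of KO hosts, with 3 arrays, were too few for this test, and KO T cells were not examined. Chance alone marks about 1 group in 20. In array 3 of that group, Prf1 had a log2 signal of 9.5444 against 9.65 to 9.66 in the others, Usp18 had 4.4529 against 4.55 to 4.57, Lgals3bp had 6.2414 against 6.53 to 6.54 and Ier3 had 6.3598 against 6.50 to 6.52. In array 1, Gbp3 had 6.867 against 6.52 to 6.56 and Bak1 had 10.177 against 10.01 to 10.03. The groups of Gbp3, Usp18, Lgals3bp, Ier3 and Bak1 did not overlap with these arrays included.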

How the results depend on the processing

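In all 12 alternatives and in all 7 fits that each left out 1 array, 0 genes passed an adjusted p under 0.05 with limma, and 103 of 111 named genes tested kept their direction. Without the 2 narrow arrays 277 genes were lower at an unadjusted p under 0.05, with the slope as a covariate 316, after median centring 353 against 874 higher, and with a filter at the 50th percentile 258, where fewer genes were tested. Leaving out 1 array gave 334 (without KO-host array 2) to 757 (without WT-host array 3). Counts of genes without overlap grow with fewer arrays, to 1383 higher and 1541 lower without the narrow arrays and to 743 to 1250 higher and 989 to 2199 lower without 1 array, and 348 were lower with the stricter filter. The median of the interferon gamma list was 0.3016 without the narrow arrays, 0.291 with the covariate and 0.458 to 0.536 without 1 array, and that of the macrophage list 0.289 to 0.5937 without 1 array. The cause of these shifts was not tested.

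Genes near 0 changed sign. Without the narrow arrays Lgals3 was at 0.1125, Pdcd1 at 0.0516 and Cxcl10 at 0.1642. Rescaling put Cd8a at -0.1206, and the covariate put Lgals3 at 0.1538, Isg15 at -0.0828 and Adam10 at -0.0251. Median centring gave 0.0272 for Lgals3, 0.0517 for Lag3 and 0.0021 for Cxcl10, and array weights 0.0008 for Lgals3 and 0.0491 for Cxcl10. Without 1 array, Lgals3 ran from -0.1204 to 0.0942, Cd8a from -0.0174 to 0.1516, Lag3 from -0.1101 to 0.0574, Pdcd1 from -0.1751 to 0.0414, Cxcl10 from -0.32 to 0.4185, Cd68 from -0.1328 to 0.4885 and Adam10 from -0.0065 to 0.1935. Deviations from group means correlated from -0.114 to 0.123 between same-numbered arrays. These values cannot decide whether the replicate numbers pair the arrays, since pairs of different numbers were not examined. The fit with a replicate block called 568 genes higher and 470 lower at an unadjusted p under 0.05, with Lgals3 at 0.003 and Pdcd1 at 0.0139.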

Other observations

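Beyond the lists, further myeloid genes lay in the class that kept an unadjusted p under 0.05 in all 3 settings without overlap, and they were picked after their values were seen. Spi1, the gene of the myeloid transcription factor PU.1, had log2 signals of 6.01, 5.58, 5.72 and 5.44 in WT T cells of WT hosts and 6.41, 6.45 and 7.11 in those of KO hosts, a difference of 0.97 (95% CI 0.42 to 1.52). Ccl8, a monocyte-attracting chemokine, had 5.21, 6.88, 5.32 and 4.31 against 7.57, 7.03 and 7.39, a difference of 1.90 (95% CI 0.91 to 2.89). The costimulatory ligand Cd86 was at 1.03 (95% CI 0.37 to 1.70), while a second row of it, with a mean log2 signal of 5.50, was at -0.39. In KO T cells of KO hosts the means of these genes were 6.77, 7.20 and 6.03. Among genes of lymphocytes, the receptor Slamf6, a marker of less differentiated exhausted T cells, had 5.16, 5.92, 5.92 and 5.44 against 6.53, 6.22 and 6.08, a difference of 0.67 (95% CI 0.27 to 1.07) that was 0.36 without the narrow arrays.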
